A study of Mus musculus with 9 samples.

Results

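The proteasome degrades proteins that carry ubiquitin chains. Its barrel-shaped core is built from alpha subunits (Psma genes), which form the outer rings and the gate, and beta subunits (Psmb genes), of which Psmb6, Psmb7 and Psmb5 hold the caspase-like, trypsin-like and chymotrypsin-like active sites. The 19S cap binds ubiquitin chains and unfolds the substrate with a ring of ATPases (Psmc genes) and a set of mostly non-ATPase subunits (Psmd genes). PA28 (Psme1 with Psme2, or Psme3 alone) and PA200 (Psme4) are activators that can dock on the core in place of the cap, Psmf1 (PI31) was named as an inhibitor of the core, and the Psmg proteins are chaperones of core assembly. In macrophages exposed to interferon, the active beta subunits are partly exchanged for Psmb8, Psmb9 and Psmb10, the immunoproteasome subunits, which are set aside here.

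The proteasome genes were taken by name, as every gene of the RiboSeq table whose symbol starts with Psma to Psmg and a number, without Psmb8, Psmb9 and Psmb10. The rule found 48 of 16921 genes, which were 17 of the core, 21 of the cap, 5 of the Psme class, Psmf1 and 4 Psmg chaperones. The names do not all fit the classes. Psmc3ip, which the rule counts with the cap, is a factor of meiotic recombination and not a subunit, while Psmd5, Psmd9 and Psmd10 are known as assembly chaperones of the ATPase ring. A normalised level of at least 10 (the mean over the 9 libraries) was reached by 44 of the 48 genes and by 10103 of all genes. The 4 under it were the processed pseudogenes Psmb5-ps at 1.18, Psmb6-ps at 0.21 and Psmb7-ps2 at 0.143, and the protein-coding Psme2b, a close copy of Psme2, at 0.125.

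RiboSeq sequences the mRNA fragments that ribosomes protect. All 9 libraries came from bone marrow-derived macrophages of TTP-deficient mice, which lack the RNA-binding protein tristetraprolin (TTP, gene Zfp36) and were immortalized with hcmyc and hRasG12V. They carried a doxycycline-inducible vector for GFP, for GFP–TTP or for GFP–TTP-AA, in which alanines replace the serines that the kinase MK2 phosphorylates. All cells received doxycycline for 6 h and LPS for 1 h (both at 1 μg/ml), and there were 3 libraries per condition. Each condition was 1 separately transduced line, so that line and construct cannot be told apart, and nothing in the labels says that the replicates were separate cultures. TTP binds AU-rich elements in 3′UTRs and lowers the stability or the translation of the mRNA, and the comparisons ask whether translation of the proteasome genes differed with wild-type or non-phosphorylatable TTP.

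The deposited values are not observed counts but those fitted by the authors' model, and they summed to between 2570290 and 12804500 per library. They hold no scatter between replicates: a gene's ratio between conditions is nearly the same at each replicate number, and its error comes only from the model's standard error (SE). Zfp36 had a level of 461 in cells with GFP alone, 930 with GFP–TTP and 1531 in GFP–TTP-AA cells. The GFP-only cells, which carry no TTP construct, thus also gave Zfp36 footprints, and the source of these was not tested. Over GFP-only cells the log2 fold change was 1.01 with GFP–TTP (SE 0.25, Wald test with Benjamini-Hochberg adjustment, adjusted p = 0.0049). With GFP–TTP-AA it was 1.73 (SE 0.25, adjusted p = 2.9e-09). Footprints on Zfp36 were also more numerous with the alanine construct than with GFP–TTP (log2 0.72, SE 0.25, adjusted p = 0.042, and 0.0693 when adjusted over the 3 comparisons together). The 10 macrophage markers were all measured. Summed, they reached 100659 with GFP alone, 81041 with GFP–TTP and 112275 in GFP–TTP-AA cells, of which Lyz2 alone made up 64258, 46149 and 71196. In GFP–TTP against GFP-only cells 3 of the 10 passed the test, all lower (Lyz2, Fcgr1 and Emr1, the gene of F4/80, at log2 −0.48, −0.95 and −0.68), where 2.09% of all tested genes passed. The other 7 did not, with values from −0.26 for Tyrobp to 0.3 for Ptprc and with Itgam at 0.1 and Cd14 at 0.11. In GFP–TTP-AA against GFP-only cells 1 passed, Emr1 at 0.54, where 3.11% of all genes did. In GFP–TTP-AA against GFP–TTP cells 3 passed as higher (Emr1 at 1.21, Fcgr1 at 0.71 and Lyz2 at 0.63). Another 1 passed as lower (Ptprc at −0.45), where 10.3% of all genes passed in either direction. Defining markers of T cells (Cd4), B cells (Cd79a, Ms4a1) and fibroblasts (Col1a1, Col1a2, Col3a1) were near 0, with summed levels of at most 0.379, 0.746 and 2.07. Those of dendritic cells (Flt3, Zbtb46 and Itgax) summed to 11.3, 14.8 and 12.1, and S100a8 of neutrophils was at 27.1, 25.7 and 55.7 in the 3 conditions. S100a8 passed the test as higher in GFP–TTP-AA than in GFP-only cells (log2 1.04, SE 0.25, adjusted p = 0.0027, Wald test). It was also higher than in GFP–TTP cells (log2 1.12, SE 0.25, adjusted p = 0.00027). In GFP–TTP against GFP-only cells it did not pass (log2 −0.079). Camp, another neutrophil marker, was at only 1.28, 1.23 and 1.38, and Ly6g and Ngp had no values. The part of these differences in the proteasome values was not tested.

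Among the genes taken by name, the median footprint level was higher for the core than for the cap. Levels are given here per kb of the gene's longest coding sequence, as the geometric mean of the 3 libraries of a condition after division by the library's size factor, and they carry no error of their own. The median of the 14 core genes was 2333 per kb with GFP alone, 2426 with GFP–TTP and 2641 in GFP–TTP-AA cells. That of the 21 cap genes was 1074, 994 and 1093, so that the core median was 2.17, 2.44 and 2.42 times the cap median. The 4 measured Psme genes had medians of 987, 840 and 881 per kb, the Psmg chaperones of 477, 452 and 475, and Psmf1 levels of 410, 360 and 371. With the shortest annotated coding sequence in place of the longest, the core medians were 2776, 2968 and 3075 per kb and the cap medians 1580, 1724 and 1552, and the ratio of core to cap was 1.76, 1.72 and 1.98.

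The caspase-like subunit Psmb6 had the highest level of the 44 genes in each condition, at 5418, 5056 and 5265 per kb in the same order of conditions. Its library values were 3869, 3714 and 4029 with GFP alone, 3610, 3465 and 3761 with GFP–TTP and 3780, 3604 and 3901 in GFP–TTP-AA cells, and the ranges of the conditions overlapped. The trypsin-like Psmb7 lay at 2355, 2443 and 2552 per kb and the chymotrypsin-like Psmb5 at 2558, 2317 and 3005 per kb. The lowest of the core was Psma5, an alpha ring subunit, at 465, 418 and 463 per kb, and the lowest of the cap was Psmd11, a lid subunit, at 51.5, 69.6 and 69.3 per kb. Of the activators, Psme3 was at 1830.4, 1840.1 and 1801 per kb, Psme1 at 1167, 1013 and 977, Psme2 at 807, 666 and 785, and the long Psme4 at 63.8, 72.8 and 72.6. Within the core the highest level was 11.6 times the lowest in GFP-only cells, and within the cap class 35.6 times.

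**Figure D1:**
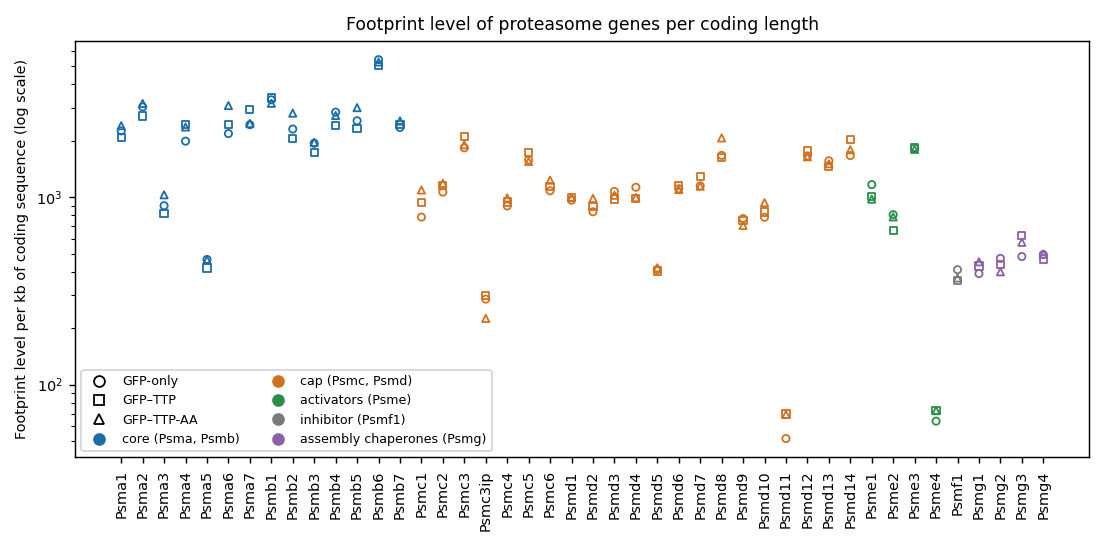
Level of each of the 44 measured proteasome genes per kb of coding sequence on a log scale, by condition (circle GFP-only, square GFP–TTP, triangle GFP–TTP-AA) and class (colour). Core genes lie mostly above the cap genes, Psmb6 is highest at 5418 per kb in GFP-only cells, and Psmd11 and Psme4 are lowest at 51.5 and 63.8.

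Low levels are uncertain where a gene has close copies, because reads were kept at up to 2 places in the genome. To measure this, each run of 28 bases of a gene's coding sequence was searched for at other places of the GRCm38 genome. Over 80% of the runs occurred elsewhere for 5 of the 44 genes: Psma3 with 92.4%, Psma5 with 90.4%, Psmb3 with 85.9%, Psme2 with 80.6% and Psmb5 with 80.4%. Psma5 and Psma3, with 465 and 901 per kb in GFP-only cells, were the lowest of the core. Psmb3 and Psmb5 were not low, at 1940 and 2558 per kb beside a core median of 2333. Runs found at 2 or more other places made up 53.3% for Psma5, 51.6% for Psma3 and 68% for Psmb3. For Psmb5 and Psme2 they made up 8.5% and 10.4%. For Psmd11 the share was 54% and for Psmc1 53.4%, while it was 0 for 20 genes, among them Psme3 and the low Psme4. How many footprints of these genes were lost to copies or gained from them was not tested.

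The immunoproteasome genes give the scale beside which the standard subunits can be read. Psmb8, which takes the place of Psmb5, was at 1064 per kb with GFP alone, 601 with GFP–TTP and 1105 in GFP–TTP-AA cells, and it was lower in GFP–TTP than in GFP-only cells (log2 −0.82, SE 0.15, Wald test, adjusted p = 1.5e-05), so that the level of Psmb5 was 2.4, 3.86 and 2.72 times that of Psmb8. The copies of Psmb5 elsewhere in the genome limit this ratio too. Psmb6 was 57.1, 88.1 and 56.5 times the level of Psmb9, and Psmb7 5.36, 5.65 and 6.01 times that of Psmb10. In GFP–TTP-AA against GFP–TTP cells Psmb8 was higher (log2 0.88, SE 0.15, Wald test, adjusted p = 7.1e-07), and so was Psmb9 (log2 0.7, SE 0.24, adjusted p = 0.034). Psmb10 was called in no comparison.

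As TTP acts on AU-rich elements, the annotated 3′UTRs of the proteasome genes (GENCODE vM21, transcript with the longest coding sequence) were searched for the pentamer ATTTA and the heptamer TATTTAT, on the sense strand and with overlaps counted. Each TATTTAT holds 1 ATTTA. Proteasome 3′UTRs were short, with a median of 255.5 nt against 964 nt for 9823 measured genes, and 25 of 44 (56.8%) were under 300 nt against 19.6% of the measured genes. ATTTA was found in 16 of 44 (36.4%) against 66.7%, and TATTTAT in 5 of 44 (11.4%) against 27.8%. Per kb of 3′UTR the 2 sets held TATTTAT about equally often, 0.28 times in the proteasome genes and 0.29 times in the measured genes. The 5 genes were Psma2, Psmb1, Psmc3ip, Psmc6 and Psme3. Their sites are shown as the heptamers found in this family, each 5′ to 3′ in the sense of the mRNA with TATTTAT in capitals (GRCm38). Whether TTP binds them, and whether these 3′UTRs are used in these cells, was not tested. The first 2 windows of Psmb1 overlap.
Psma2 (chr13:14626454-14626482, plus strand): agttactcgtgTATTTATtgtatatctgt
Psmb1 (chr17:15475677-15475705, minus strand): ttatctggataTATTTATttattttgaga
Psmb1 (chr17:15475673-15475701, minus strand): ctggatatattTATTTATtttgagattta
Psmb1 (chr17:15475608-15475636, minus strand): acgtgcatgcaTATTTATgtgaacagggt
Psmc3ip (chr11:101092171-101092199, minus strand): agtatttgtaaTATTTATtgtaatataat
Psmc6 (chr14:45349628-45349656, plus strand): aaaattgagatTATTTATagttaattctt
Psme3 (chr11:101322909-101322937, plus strand): aatgtttctcgTATTTATagtattgtgct

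Of the 5 genes with a heptamer 0 passed the test in each comparison, where 2.09%, 3.11% and 10.3% of all tested genes did in GFP–TTP over GFP-only, GFP–TTP-AA over GFP-only and GFP–TTP-AA over GFP–TTP, so that the count says nothing particular about 5 genes. In GFP–TTP against GFP-only cells the log2 fold changes were −0.16 for Psma2 (SE 0.14), 0.035 for Psmb1 with its 3 heptamers (SE 0.12), 0.06 for Psmc3ip (SE 0.18), 0.081 for Psmc6 (SE 0.14) and 0.0077 for Psme3 (SE 0.12). In GFP–TTP-AA against GFP-only cells they were 0.06, −0.062, −0.34, 0.19 and −0.023 (SE 0.14, 0.12, 0.19, 0.14 and 0.12). In GFP–TTP-AA against GFP–TTP cells they were 0.22, −0.097, −0.4, 0.11 and −0.031, with the same rounded SEs. The −0.4 of Psmc3ip, the lowest value of the 44 genes, had an unadjusted p of 0.031 (Wald test, adjusted p = 0.167). The 3 genes that did pass a test in some comparison, Psma6, Psmc1 and Psmb5, have annotated 3′UTRs of 160, 213 and 73 nt without ATTTA.

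Expression of wild-type TTP was not accompanied by a called change of any proteasome gene. In GFP–TTP against GFP-only cells 0 of 44 genes passed an adjusted p of 0.05 (Wald test on the fitted log2 fold change and its SE, Benjamini-Hochberg over 9938 genes), where 2.09% of all tested genes did, 0.805% higher and 1.29% lower. An unadjusted p under 0.05 was reached by 5 genes (11.4%, against 11.3% of all genes), 4 of them higher in GFP–TTP. Over the 44 genes the median log2 fold change came to 0.039, beside 0.0021 over all tested genes. A lower number of footprints can come from fewer mRNAs or from fewer ribosomes on each, which RiboSeq alone cannot tell apart, just as in bulk samples fewer cells of a type and less RNA per cell cannot be told apart.

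The core and the cap had medians on opposite sides of 0 in this comparison. The core median was −0.12, with 9 of 14 genes below 0, and the cap median 0.081, with 15 of 21 above 0. All 6 ATPase subunits (Psmc1 to Psmc6) were above 0, between 0.07 for Psmc4 and 0.26 for Psmc1. The SE of single genes, with a median of 0.14 in the core and 0.13 in the cap, was about as large as these values, and the difference between the classes was not tested. In the core the extremes were Psma4, an alpha subunit, at 0.29 (SE 0.13, adjusted p = 0.318 by the Wald test) and Psmb4, a structural beta subunit, at −0.23 (SE 0.12, adjusted p = 0.441). In the cap they were Psmd11 at 0.43 (SE 0.22, adjusted p = 0.441) and Psmd4, a ubiquitin receptor, at −0.2 (SE 0.13, adjusted p = 0.61).

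Both of the lowest genes lie on chromosome 3, whose 475 genes with a level of at least 10 had a median of −0.18 in GFP–TTP against GFP-only cells. After that median was subtracted, Psmb4 was at −0.056, Psmd4 at −0.022 and Psma5, the third proteasome gene of that chromosome, at 0.024. The core median became −0.088 and the cap median 0.062, and 2 of the 44 genes in place of 5 had an unadjusted p under 0.05. What shifted the chromosome was not tested.

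Of the other classes, the PA28 subunits Psme1 and Psme2 had log2 fold changes of −0.2 (SE 0.14) and −0.28 (SE 0.17) in GFP–TTP against GFP-only cells, Psme3 0.0077 and Psme4 0.19 (SE 0.17). Psmf1 was at −0.19 (SE 0.16). Among the assembly chaperones Psmg3 was highest at 0.38 (SE 0.18, adjusted p = 0.398, Wald test) and Psmg2 lowest at −0.11 (SE 0.16). The library values of Psmg3 were 165, 182 and 184 in GFP-only and 214, 236 and 239 in GFP–TTP cells and did not overlap, yet the fitted values understate the scatter between libraries, and the gene did not pass the test.

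With the non-phosphorylatable GFP–TTP-AA, 2 of 44 proteasome genes were higher than in GFP-only cells and 0 lower. Over all 10103 genes 3.11% passed the same test, 1.7% higher and 1.41% lower, so that 2 of 44 is close to the share of all genes. The 2 genes were Psma6, an alpha ring subunit, and Psmc1, an ATPase of the cap. An unadjusted p under 0.05 was reached by 4 genes, all higher (9.09%, against 14.2% of all genes).

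Psma6 (chromosome 12, 55384222 to 55418454, plus strand) had fitted values of 1580, 1481 and 1794 in the 3 GFP-only libraries, 1772, 1660 and 2012 in GFP–TTP and 2240, 2086 and 2521 in GFP–TTP-AA. The GFP–TTP-AA libraries all lay above the others, and the GFP–TTP libraries overlapped the GFP-only libraries. As the values are fitted, such a separation does not measure agreement between replicates. The fold change over GFP-only cells was 1.41 (log2 0.5, SE 0.13, 95% interval 0.25 to 0.75, adjusted p = 0.00712, Wald test). Over GFP–TTP it was 1.26 (log2 0.33, SE 0.13, adjusted p = 0.0759).

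Psmc1 (chromosome 12, 100110154 to 100123405, plus strand) had fitted values of 944, 923 and 1268 in GFP-only, 1129, 1104 and 1518 in GFP–TTP and 1323, 1286 and 1763 in GFP–TTP-AA cells. The lowest GFP–TTP-AA library was only just above the highest GFP-only library, since replicate 3 was higher than the others in every condition. The fold change was 1.4 (log2 0.48, SE 0.13, 95% interval 0.22 to 0.74, adjusted p = 0.0168, Wald test).

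Both genes lie on chromosome 12, with 349 tested genes and a median of 0.11 in this comparison. The third proteasome gene there, the alpha subunit Psma3, was at 0.19 (SE 0.16). With the median of the chromosome subtracted from every gene, Psma6 fell to 0.38 (adjusted p = 0.0786, Wald test) and Psmc1 to 0.37 (adjusted p = 0.125), and neither call was kept. For Psmc1, the copies elsewhere in the genome (53.4% of the runs) also limit the value, while for Psma6 only 0.84% of the runs occurred elsewhere.

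The class medians over GFP-only cells were 0.076 for the core (10 of 14 above 0), 0.046 for the cap (12 of 21 above 0) and −0.032 for the Psme class, the last turning to 0.032 with the chromosome medians subtracted, beside −0.004 for all genes. Psmb1 was the lowest of the core at −0.062 (SE 0.12) and Psmc3ip the lowest of the cap class at −0.34 (SE 0.19, adjusted p = 0.402, Wald test). Psme1 was at −0.26 (SE 0.14, adjusted p = 0.414), with library values of 841, 840 and 939 in GFP-only, 730, 729 and 815 in GFP–TTP and 707, 702 and 782 in GFP–TTP-AA cells. The fitted GFP-only values of Psme1 were all above those of both TTP constructs, which does not measure agreement between replicates, and the gene did not pass the test. Psme2 was at −0.04 (SE 0.17), Psme3 at −0.023 (SE 0.12), Psme4 at 0.19 (SE 0.17) and Psmf1 at −0.15 (SE 0.16). Psmg3 and Psmg2 were again the highest and the lowest chaperone gene, at 0.25 (SE 0.18) and −0.24 (SE 0.16).

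**Figure D2:**
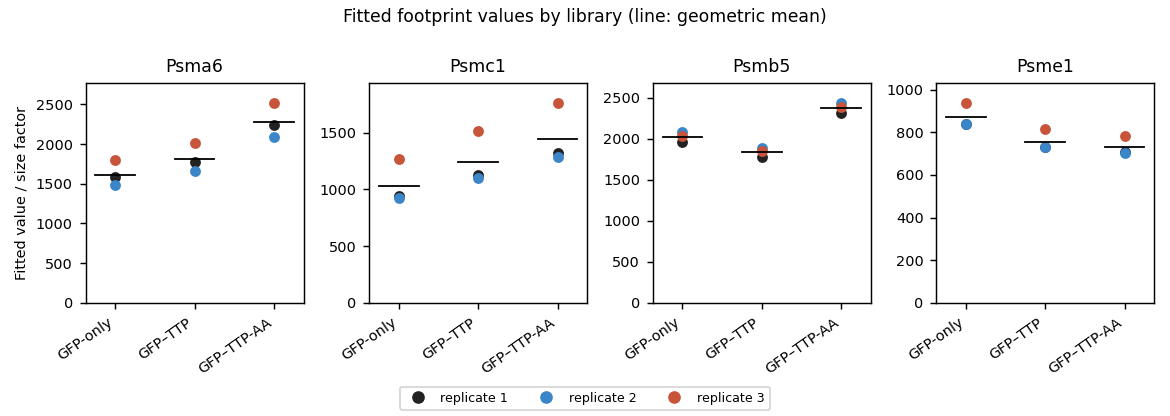
Fitted footprint values divided by the size factor in each of the 9 libraries for Psma6, Psmc1, Psmb5 and Psme1 (vertical axis from 0, points coloured by replicate number, line at the geometric mean of the condition). In Psma6 the GFP–TTP-AA libraries lie at 2086 to 2521, above the GFP-only libraries at 1481 to 1794, and the replicates keep the same order in each condition because the values are fitted.

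Between the 2 TTP constructs, 1 of 44 proteasome genes passed the test, Psmb5, which was higher with GFP–TTP-AA. This was the comparison with the most called genes, 10.3% of 10103, of which 5.4% were higher and 4.87% lower, so that 1 of 44 is a smaller share than that of all genes, a difference that was not tested. The number with an unadjusted p under 0.05 was 6 (13.6%, against 22.2% of all genes), 5 of them higher in GFP–TTP-AA. The SD of the 44 log2 fold changes was 0.18, beside 0.35 for all genes, and the median SE of the proteasome genes was 0.14, beside 0.19.

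Psmb5 (chromosome 14, 54614119 to 54618022, minus strand), which carries the chymotrypsin-like site, had fitted values of 1961, 2079 and 2040 in GFP-only, 1775, 1883 and 1848 in GFP–TTP and 2315, 2440 and 2387 in GFP–TTP-AA cells. Every fitted GFP–TTP-AA value was above every value of the other conditions, which for fitted values does not measure agreement between replicates. The fold change over GFP–TTP was 1.3 (log2 0.38, SE 0.13, 95% interval 0.12 to 0.63, adjusted p = 0.0451, Wald test), and it was lost when the p-values of the 3 comparisons were adjusted together (adjusted p = 0.0738). The value is also limited by the copies of Psmb5, as 80.4% of its runs of 28 bases occurred elsewhere in the genome. Against GFP-only cells the log2 fold change of Psmb5 was 0.23 with GFP–TTP-AA (SE 0.13, adjusted p = 0.432) and −0.14 with GFP–TTP (SE 0.13, adjusted p = 0.764).

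Of the core genes, 11 of 14 were above 0 in GFP–TTP-AA against GFP–TTP, with a median of 0.17, where the cap median was 0.018 (12 of 21 above 0) and the Psme median −0.018, which became 0.096 with the chromosome medians subtracted. The highest core gene was Psmb2, a structural beta subunit, at 0.44 (SE 0.17, adjusted p = 0.0639, Wald test). Its library values were 1327, 1007 and 1448 with GFP–TTP and 1814, 1368 and 1961 with GFP–TTP-AA, and the ranges overlapped because replicate 2 was low in both. The lowest was Psma7 at −0.25 (SE 0.16). In the cap, Psmd8, a lid subunit, was highest at 0.35 (SE 0.13, adjusted p = 0.0624) and Psmc3ip lowest at −0.4 (SE 0.19, adjusted p = 0.167). The catalytic Psmb6 and Psmb7 were at 0.059 (SE 0.14) and 0.063 (SE 0.13), Psme1 to Psme4 at −0.053, 0.24, −0.031 and −0.0045, Psmf1 at 0.04, and the chaperones between −0.13 for Psmg2 and 0.09 for Psmg4. The 3 comparisons share their libraries, so that a low value in GFP–TTP enters 2 of them with opposite signs.

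**Figure D3:**
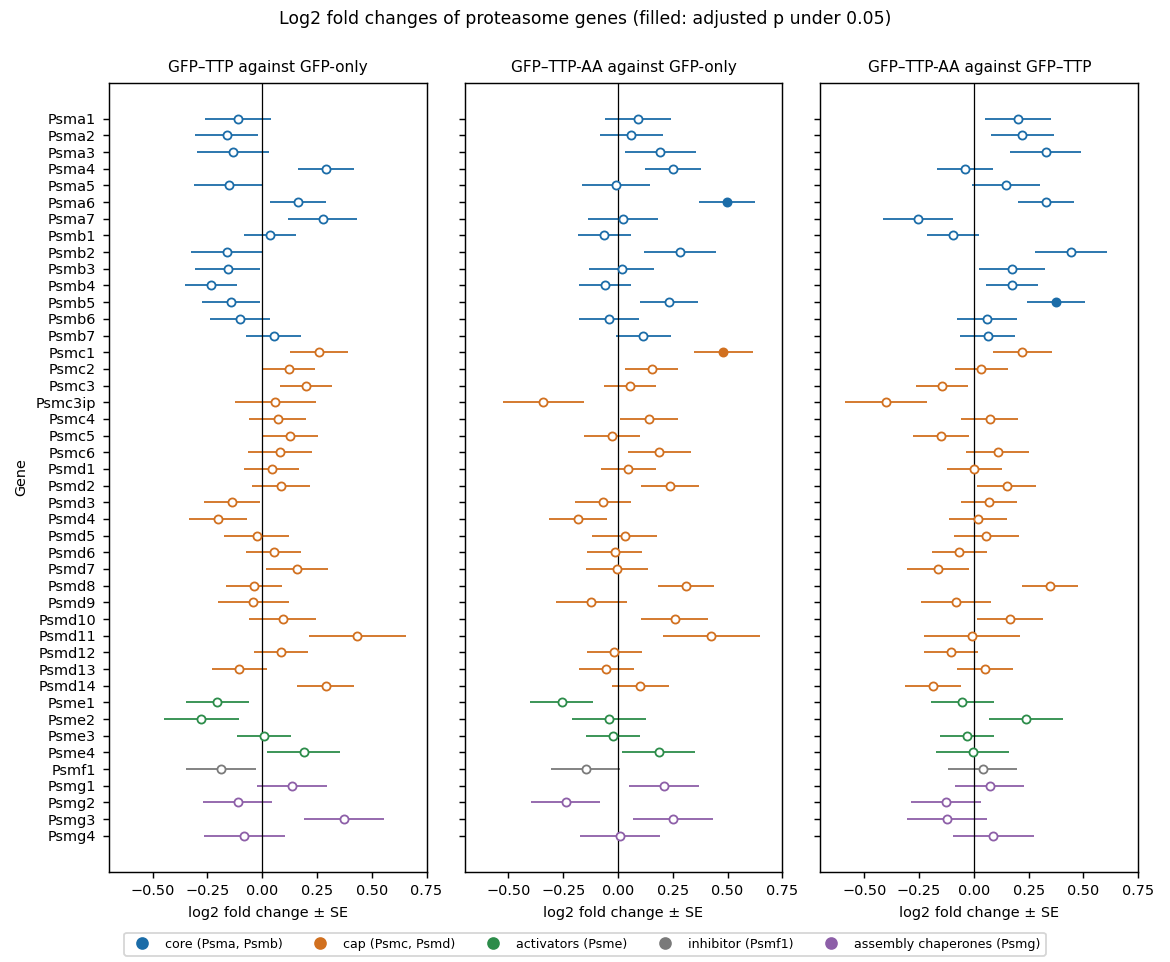
Log2 fold change with its SE (bars) of the 44 measured proteasome genes in the 3 comparisons, coloured by class, with filled points where the adjusted p was under 0.05. The filled points are Psma6 and Psmc1 in GFP–TTP-AA against GFP-only and Psmb5 in GFP–TTP-AA against GFP–TTP, and the values of all genes lie between −0.4 and 0.5.

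Genes that work with the proteasome were read beside it from lists of 11, 4 and 20 symbols, of which 8, 4 and 19 were measured. At shares of 2.09%, 3.11% and 10.3% of all genes called in the 3 comparisons, and of 11.3%, 14.2% and 22.2% with an unadjusted p under 0.05, few or no calls fall to lists of this size. Among 8 measured genes of other proteasome parts and assembly factors (Adrm1, Shfm1, AI314180, Pomp, Usp14, Uchl5, Ubr4 and Akirin2), 0 were called in each comparison by the Wald test, with 1, 1 and 0 at an unadjusted p under 0.05 in the order of the comparisons above. The highest was Uchl5, a deubiquitinase of the cap, at 0.39 in GFP–TTP (SE 0.13, adjusted p = 0.111, Wald test) and 0.42 in GFP–TTP-AA (SE 0.13, adjusted p = 0.0574) against GFP-only cells. The transcription factor Nfe2l1, which drives proteasome genes when proteasome activity falls, and Ddi2 and Ngly1, which process it, were measured with the related Nfe2l2, and 0 of these 4 were called or had an unadjusted p under 0.05, with log2 fold changes between −0.27 and 0.16. Of 19 measured genes for ubiquitin, its activating enzymes and shuttle factors 0 were called as well (0, 1 and 3 at an unadjusted p under 0.05), with medians of 0.035, −0.044 and −0.07 in GFP–TTP over GFP-only, GFP–TTP-AA over GFP-only and GFP–TTP-AA over GFP–TTP.

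The fitted values of the proteasome genes also vary with the replicate number. The SD of the log2 difference over the 44 genes was 0.16 for replicate 2 and 0.19 for replicate 3 against replicate 1, beside 0.27 and 0.29 over all genes, and the SDs of the 44 genes in the 3 comparisons of conditions were 0.17, 0.19 and 0.18. The 2 sets were not matched for level. In GFP–TTP against GFP-only cells the median SE was 0.14 for the proteasome genes and 0.19 over all genes. Whether the narrower spread belongs to the proteasome genes or to their level was not tested. The fitted values hold 1 term per replicate number that is common to the 3 conditions, and it has no SE in the tables, so that it is given as a description. From replicate 1 to replicate 3 the median log2 difference of the proteasome genes was 0.11, with 33 of 44 genes above 0, where over all genes it was 0.007 with 5170 of 10103 above 0. The range went from −0.19 for Psmb3 to 0.63 for Psmd8, whose libraries were at 1499, 1592 and 2324 in GFP-only cells. All 4 Psme genes were higher in replicate 3, with a median of 0.23. From replicate 1 to replicate 2 the core median was −0.11, with 4 of 14 genes above 0, and the range went from −0.4 for Psmb2 to 0.36 for Psmb1. Replicate 2 had the smallest library of each condition, with sums of fitted values between 2570290 and 3945430. Library date and replicate number cannot be told apart here, and the part of depth in the term was not tested.

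**Figure D4:**
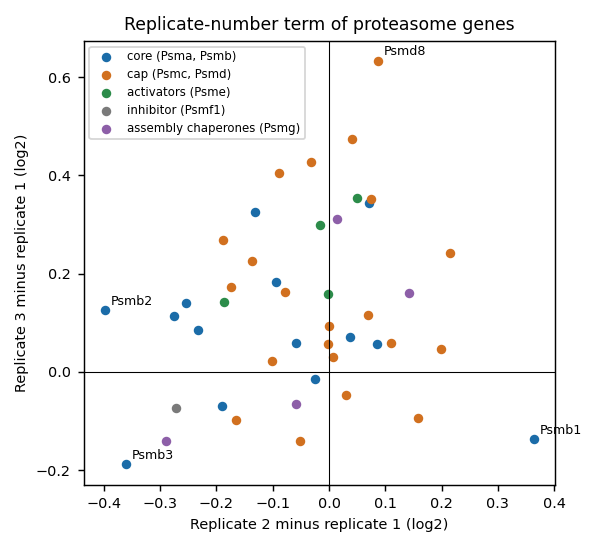
Log2 difference between libraries of replicate 2 and replicate 1 (horizontal) and of replicate 3 and replicate 1 (vertical) for the 44 measured proteasome genes, coloured by class. Of these genes 33 lie above 0 on the vertical axis, with Psmd8 highest at 0.63, and Psmb2 and Psmb1 mark the ends of the horizontal axis at −0.4 and 0.36.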

How the data were processed

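RiboSeq was analysed in 9 libraries (3 conditions, 3 each), grouped by the sample labels. The authors isolated footprints with the ARTseq kit, depleted rRNA, mapped the reads with TopHat (TopHat2 2.0.12 per the labels) to mm10, keeping at most 2 alignments of a read, counted them with HTSeq on Ensembl genes and fitted them with DESeq2 1.6.3, with terms for library date and condition. The deposited table of normalized counts holds, as a signal, the value that the authors' model fitted per gene and library. Its log2 values have an SD of 4.73, and a term per gene for the condition and one for the replicate number left a residual SD of 1.9e-15. From the deposited comparison tables only the standard error of the log2 fold change, shrunken by the authors' model, was used. The other columns there hold the authors' fold changes, statistics and p-values. They are read by no computation, but the fold changes guided the choice of the limit for the size factors, which enter every level and log2 fold change.

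Of 16932 lines, 11 repeated a gene identifier. Size factors (0.414 to 2.14) were recovered from the ratios between libraries in 4646 genes with a fitted mean under 1. This limit was chosen after the data were seen, among several limits, because it gave the library constants that those fold changes imply. Small errors of the factors shift all genes of a library alike. Log2 fold changes were computed from the levels without a pseudocount and divided by the deposited standard error (two-sided Wald test, Benjamini-Hochberg over genes with a level of at least 10, threshold 0.05). Values and errors are both shrunken, so that changes are understated, most in low genes, and reads per library are unknown. The p-values measure the spread between these libraries, which may be technical. The Wald test and the recovery of the size factors were run on simulated data built with their own assumptions. This checks the computation and cannot show whether the deposited errors are right.

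The proteasome genes and the other lists were chosen with earlier results of these data known. Genes were named by a rule: all that passed a test, the catalytic subunits, the activators and Psmf1, the highest and lowest of the core, the cap and the chaperones in each comparison, members under the filter, and the listed genes outside the family as counts. Psmb1, Psmc6, Psma2 and Psmc3ip with their heptamers, Psma3, Psma5, Psmb3, Psmc4 and Uchl5 were named after their values were seen. The older symbol Emr1 for the marker Adgre1, the search for copies and the 3′UTR search were added after the data were seen. Positions, coding lengths and sequences come from GENCODE vM21 and RefSeq on GRCm38. Python 3.11.15 with numpy 2.4.6, pandas 2.3.3, scipy 1.17.1 and matplotlib 3.10.9 was used.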

Additional observations from a re-analysis of the deposited data

How the results depend on the processing

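No paired analysis was possible because the deposited values are fitted by a model that already holds a term for the library date, and they keep no scatter between replicates. For the same reason leaving out each replicate and a fit without the block were not run. With the median of the chromosome subtracted, 0 proteasome genes in place of 2 were called in GFP–TTP-AA against GFP-only (Wald test, 5 with an unadjusted p under 0.05), and with p-values adjusted over the 3 comparisons together 0 in place of 1 in GFP–TTP-AA against GFP–TTP (6 with an unadjusted p under 0.05). The cause was not tested. The other alternatives, which were no filter, a level of at least 50, centring on the median of all genes, a pseudocount of 10 for the medians, and leaving out Psmc3ip and the low pseudogenes and copy (added after the data were seen), moved no count of called genes in any comparison. Most of them could hardly do so. Without the filter and at a level of at least 50 the tested proteasome genes stayed at 44, so that only the adjustment over all genes could change a call. The genes left out had not been called. The medians have no error of their own. Without the filter they moved by up to 0.058 (the Psme class in GFP–TTP against GFP-only, from −0.098 to −0.04, while the core in GFP–TTP-AA against GFP-only went from 0.076 to 0.021), with the chromosome medians by up to 0.11, which turned the sign of the Psme class in both comparisons of GFP–TTP-AA, and with the others by at most 0.008. With the shortest coding sequence the cap median in GFP–TTP was 1724 per kb, and the Psme medians in GFP–TTP and GFP–TTP-AA were 1356 and 1328. Depth limits the results through the SE, which was between 0.12 and 0.22 for the proteasome genes.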
